A study of Mus musculus with 8 samples.

Results

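ZFP281 regions that primary tumour and early lesion spheres had in common, and that lay at the boundary of a single gene, numbered 1153 of the 19317 regions formed from 6 lists of binding summits. Summits that lay 200 bp or less from one another, whichever list they came from, formed 1 region. Members were chosen by the summit calls themselves: a region was kept when it held a summit in at least 2 of the 3 primary tumour (PT) lists and at least 2 of the 3 early lesion (EL) lists, and when it lay within 1 kb of the start or end of exactly 1 protein-coding gene. The 1153 regions belonged to 1129 of 21887 protein-coding genes (5.16%), 24 of which had 2 regions each. Of 2886 shared regions, 181 lay within 1 kb of several genes, 555 lay over 1 kb and up to 5 kb from any boundary, 574 lay farther away inside a gene and 423 farther away between genes.

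The cells came from MMTV-HER2/Neu mice on the FvB background, in which the HER2/Neu oncogene is driven in the mammary epithelium by a viral promoter. Both groups carry this transgene. PT spheres were grown from animals older than 20 weeks that bore primary tumours, with the tissue labelled as breast tumor. EL spheres were grown from animals of 14 to 18 weeks with no tumour that could be felt, with the tissue labelled as mammary lung. All cells were labelled as breast cancer cells and spent 7 days in mammosphere medium on plates of low adhesion. Each group had 3 libraries of chromatin precipitated with a ZFP281 antibody and 1 input, and the inputs were not analysed here. The labels call the libraries biological replicates without naming animals, so p-values measure only the spread between these libraries. Summit lists show binding and not expression, so the labelled cell type could not be checked from them.

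ZFP281 is a zinc finger transcription factor that binds G-rich DNA and is known from the control of pluripotency and of epithelial to mesenchymal transition (EMT). Transcription factors of this kind recognise short DNA words through arrays of zinc fingers, and promoters rich in CpG dinucleotides hold many such words. Near a promoter, such a factor can recruit coactivators or the NuRD corepressor complex.

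A G-rich word lay under many of the summits at gene starts. RefSeq promoter windows of build GRCm38.p6, which reach from 250 bp before to 50 bp after a gene start, were matched by gene ID for 937 of the 1153 regions. In 357 of them the median summit lay inside the window. Of these windows 169 (47.3%, 95% Wilson interval 42.2% to 52.5%) held the 9-letter word GGGGAGGGG directly preceded by one more G, on either strand, a G-rich word of the kind ZFP281 recognises. This extended word of 10 letters is called the G-run word here. The word stood in 578 of 17492 windows of all protein-coding genes, 1 window per gene (3.30%). Among windows whose GC content reached the median of the member genes, 66.3%, it stood in 267 of 3512 (7.60%). Wherever the summit lay, the word stood in the nearest window of 207 of 918 member genes (22.5%). Where the summit lay outside the window it stood in 42 of 580 windows (7.24%), close to the share at high GC content. The stretches that follow are read along the gene strand and centred on the median summit, those of Faf1 and Cldn3 being cut off where the window begins, with the G-run word or its reverse complement in capitals. The first 7 show the word beside the summit in strongly scored, sharply placed or pathway genes, and Kmt2a shows a top region without it. Faf1, Cldn3, Dgkh and Il1rl2 are regions that later differ in rank between the groups. The stretches of Dgkh and Il1rl2 hold 1 match each, and those of Faf1 and Cldn3 hold none. Stretches not printed include those of Jarid2, Tgif1, Ino80 and Ypel3, which held no match, and those of Ptbp1 and Cdkn2b, which held 1 each. In Jarid2, Tgif1 and Ypel3 the word lay elsewhere in the window. The printed set therefore does not show how often the word lies at a summit, or how it divides between the groups.
Sumo3: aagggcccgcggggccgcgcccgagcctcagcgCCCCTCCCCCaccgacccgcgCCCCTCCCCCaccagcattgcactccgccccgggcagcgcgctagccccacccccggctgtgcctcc
Bmpr1a: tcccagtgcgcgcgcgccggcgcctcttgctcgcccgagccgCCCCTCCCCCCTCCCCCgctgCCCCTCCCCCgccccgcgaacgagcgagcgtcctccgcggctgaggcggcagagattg
Sde2: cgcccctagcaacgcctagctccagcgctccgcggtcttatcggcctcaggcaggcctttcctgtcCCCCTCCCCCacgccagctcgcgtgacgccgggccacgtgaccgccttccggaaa
Pkm: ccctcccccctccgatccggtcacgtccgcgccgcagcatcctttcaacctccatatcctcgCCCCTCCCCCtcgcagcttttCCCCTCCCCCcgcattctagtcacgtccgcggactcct
Cic: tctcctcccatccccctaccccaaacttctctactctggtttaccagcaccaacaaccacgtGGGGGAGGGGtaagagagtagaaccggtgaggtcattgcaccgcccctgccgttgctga
Psmg1: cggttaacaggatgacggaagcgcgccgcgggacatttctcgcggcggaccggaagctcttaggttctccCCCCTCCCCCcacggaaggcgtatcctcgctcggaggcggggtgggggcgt
Fzd7: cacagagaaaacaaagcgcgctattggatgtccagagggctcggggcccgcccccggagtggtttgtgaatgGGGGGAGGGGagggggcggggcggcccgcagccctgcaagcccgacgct
Kmt2a: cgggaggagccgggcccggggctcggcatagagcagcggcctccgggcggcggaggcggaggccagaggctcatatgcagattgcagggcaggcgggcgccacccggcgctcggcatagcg
Faf1: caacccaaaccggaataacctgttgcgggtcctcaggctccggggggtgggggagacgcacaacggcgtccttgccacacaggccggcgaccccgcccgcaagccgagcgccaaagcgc
Cldn3: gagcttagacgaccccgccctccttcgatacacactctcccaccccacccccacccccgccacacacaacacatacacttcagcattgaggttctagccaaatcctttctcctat
Dgkh: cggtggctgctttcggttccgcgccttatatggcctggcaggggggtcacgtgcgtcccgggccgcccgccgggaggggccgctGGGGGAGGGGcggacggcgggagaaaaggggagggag
Il1rl2: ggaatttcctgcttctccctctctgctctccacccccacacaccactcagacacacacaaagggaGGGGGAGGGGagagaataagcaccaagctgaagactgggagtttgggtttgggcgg

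The stretches lie at these places of GRCm38.p6, with the gene strand in brackets. Those of regions with the highest percentiles are Sumo3 at chr10:77606402-77606522 (plus), Bmpr1a at chr14:34502642-34502762 (minus), Sde2 at chr1:180850923-180851043 (plus), Kmt2a at chr9:44881410-44881530 (minus). Those of pathway or sharply placed genes are Pkm at chr9:59657131-59657251 (plus), Cic at chr7:25267526-25267646 (plus), Psmg1 at chr16:95990958-95991078 (minus), Fzd7 at chr1:59482008-59482128 (plus). The regions that differ in rank are Faf1 at chr4:109676377-109676495 (plus), Cldn3 at chr5:134985964-134986078 (plus), Dgkh at chr14:78732806-78732926 (minus), Il1rl2 at chr1:40324473-40324593 (plus). In the Sumo3 stretch the summit is base 61 and the matches cover bases 34 to 43 and 55 to 64. In the Bmpr1a stretch 3 matches, 2 of them overlapping, cover bases 43 to 52, 50 to 59 and 64 to 73 around the summit at base 61. In the Cic stretch the match begins 2 bases after the summit, at base 63.

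The word lay close to the summits. Over the 169 windows that held it, the median distance from the summit to the middle of the nearest match was 18.0 bp, and 137 matches (81.1%) lay within 50 bp. The shorter word GGGGAGGGG, which the G-run word contains, stood in 176 of the 357 windows (49.3%) and in 6.94% of all windows. For GGGGCGGGG, the GC box bound by Sp and Klf factors, the share was 38.7% in the windows with a member summit, 15.5% in all windows and 38.7% in the windows of high GC content, and the median distance was 44.2 bp. CCGGAAG, the core bound by ETS factors, stood in 14.3% of the windows with a member summit, 11.9% of all windows and 14.9% of the windows of high GC content, at a median distance of 64.0 bp. TATAAA stood in 5.04% of the windows with a member summit, 13.3% of all windows and 2.33% of those of high GC content. ATGGCG was found in 15.7%, 11.2% and 16.3% of the same sets, and TGACGTCA in 3.08%, 2.34% and 2.88%. All words were searched on both strands. For the G-run word, the match nearest to the summit was on the gene strand in 76 windows and on the opposite strand in 93, so both orientations occurred.

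**Figure D1:**
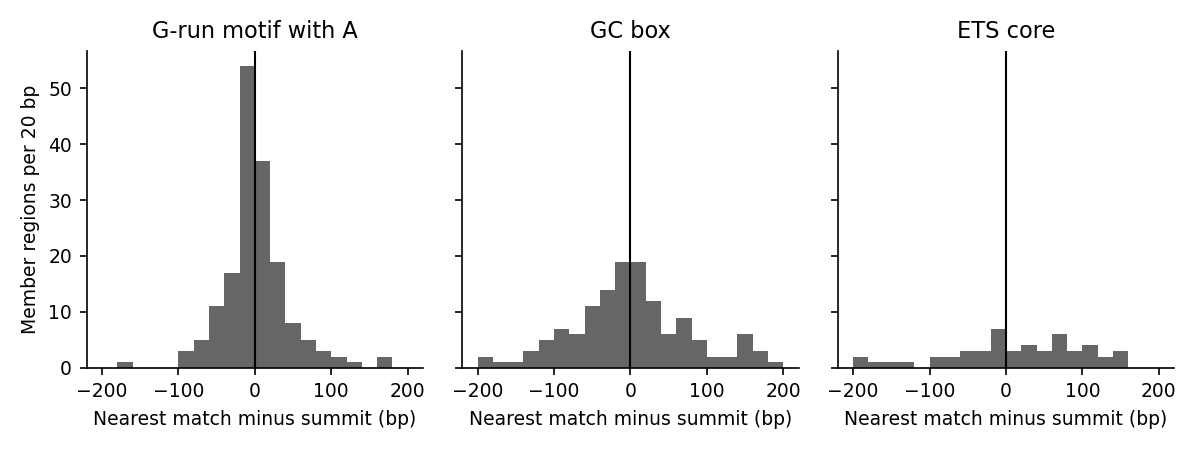
Distance in bp from the summit to the nearest match of the G-run word (G-run motif with A, left), GGGGCGGGG (GC box, middle) and CCGGAAG (ETS core, right), for member regions whose median summit lies in the promoter window, in bins of 20 bp. The left panel piles up around 0, with 81.1% of its 169 regions within 50 bp, against 55.1% of 138 for the GC box and 39.2% of 51 for the ETS core.

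Regions at a single gene that the groups did not share were looked at in the same way. With a summit in the window and calls in at least 2 EL lists and no PT list, 23 of 156 windows held the G-run word (14.7%, 95% Wilson interval 10% to 21.2%). The share was 3 of 11 for regions in at least 2 PT lists and no EL list, and 43 of 432 (9.95%, 7.47% to 13.1%) for regions of 1 library. Differences between these sets were not tested. No sequence outside the promoter windows was read. The word and the sets were compared after other values of these data had been seen.

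Regions with the word also ranked higher in every library. To compare lists of unequal length, the 1573 regions found in all 6 lists, of any class, were ranked within each library by score, from 0 to 100 with 100 the highest. Of these common regions 678 were members, and 232 members had the summit in a matched window. The 129 with the G-run word had median ranks of 64.8, 60.3 and 60.6 in PT replicates 1, 2 and 3, and of 65.4, 62.2 and 63.2 in EL replicates 1, 2 and 3. The 103 without it had medians of 40.8, 37.0 and 52.3 in the PT libraries and 42.6, 43.9 and 44.1 in the EL libraries. Every library showed the same direction, and PT replicate 3 had the narrowest gap, 8.26 points. The mean difference was 19.3 ± 5.90 rank points (SD, n = 6; exact sign-flip permutation p = 0.031, two-sided, the smallest that 6 libraries allow). Adjusted over 4 such within-library comparisons the exact permutation p was 0.0625, above 0.05. The 6 libraries rank the same regions, so they are not independent of one another in the sequences compared. Median GC content of the windows was 68.3% with the word and 67.0% without it among all 357. In windows with 2 or more matches, 15 regions, the medians were 66.2, 54.8 and 69.6 in PT and 61.4, 58.2 and 67.6 in EL, which lie on both sides of the medians for 1 match (64.4, 61.4 and 59.6 in PT, and 66.4, 62.6 and 61.1 in EL).

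**Figure D2:**
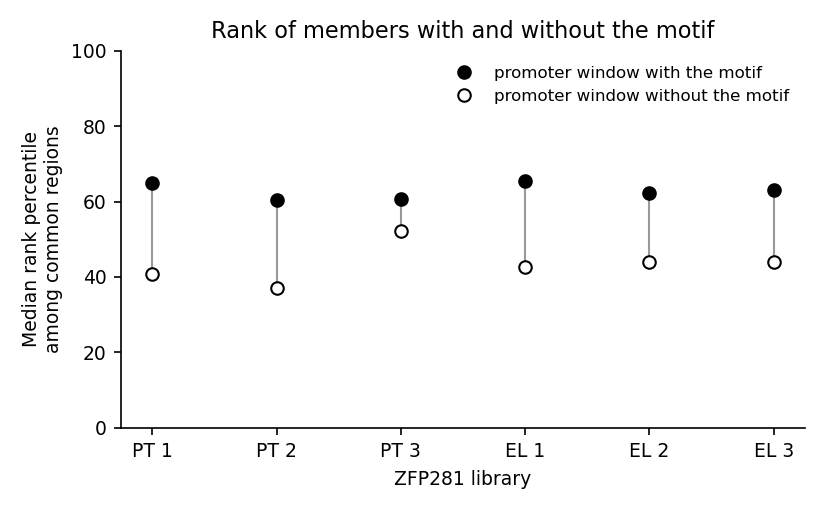
Median rank percentile (0 to 100) among the 1573 common regions, for 129 members whose promoter window holds the G-run word (filled) and 103 whose window does not (open), in each PT and EL library; grey lines join the medians of a library. The filled circle lies above the open one in all 6 libraries.

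The regions sat at gene starts. Of the 937 regions matched to a promoter window, 898 (95.8%) lay at the 5' boundary of their gene and 39 at the 3' boundary, although the rule accepted either. For comparison, 607 of 689 matched regions (88.1%) in at least 2 EL lists and no PT list lay at the 5' boundary, as did 1348 of 1515 (89.0%) of those from 1 library. The median summit lay upstream of the nearest listed start in 482 regions (51.4%), and 838 lay within 1 kb of one. The 250 bp before the start held 303 regions (32.3%), the first 50 bp after it 54, and the stretch from 50 to 250 bp after it 126. The table does not list every start. For example, the Tet3 region, 975 bp from the gene boundary, lay at -14508 bp from the nearest listed start, where a negative value is upstream. Of the 39 regions at 3' boundaries, 37 had no listed start within 1 kb. The leading one was at Junb, an AP-1 transcription factor gene, 326 bp from the boundary of the gene and with a percentile of at least 97.3 in every list. Slc29a1, a nucleoside transporter, Sertad1, a cell cycle regulator, and Gadd45g, a stress response gene, were other examples found in all 6 lists.

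**Figure D3:**
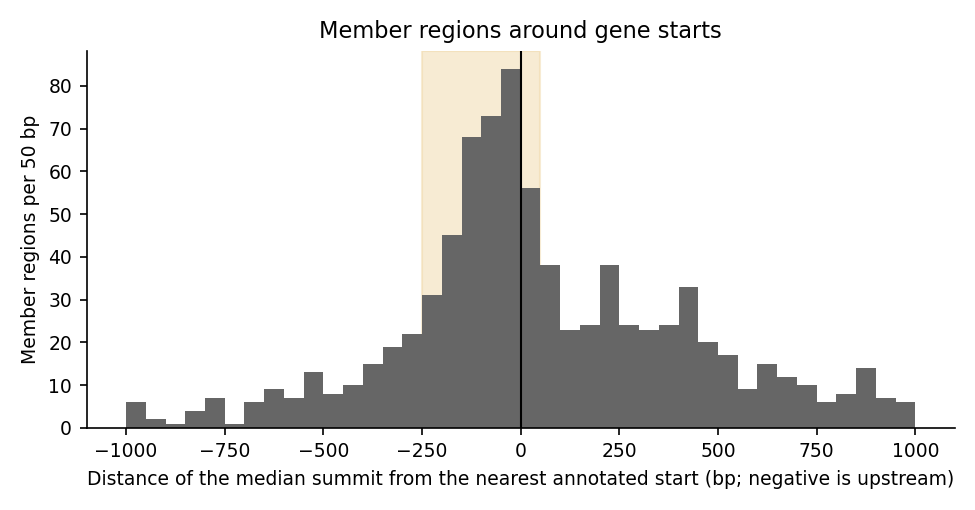
Distance in bp of the median summit of matched member regions from the nearest annotated gene start, in bins of 50 bp, with upstream to the left; regions farther than 1 kb are not drawn, and shading marks the promoter window whose sequence was read. The counts peak just before the start, where the 250 bp upstream hold 303 of the 937 matched regions.

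Summit positions were compared between the groups by their distance from the gene boundary and by their offset from one another, in tests that cannot give a p below 0.10. The median distance of a summit from the gene boundary was 262, 271 and 262 bp in PT replicates 1, 2 and 3, and 278, 260 and 266 bp in the EL replicates. The means were 265 ± 5.35 and 268 ± 9.39 bp (SD, n = 3 each), and the difference of -3.50 bp, PT minus EL, was within the spread between libraries (exact permutation p = 0.700, two-sided). Within a region, summits of a PT and an EL library lay 56.4 bp apart on average over 9 pairs of libraries. Summits of libraries of the same group lay 54.3 bp apart over 6 pairs. This excess of 2.10 bp had an exact permutation p of 0.10 (two-sided), the smallest that 3 against 3 libraries can give. The average was 57.1 bp within PT and 51.6 bp within EL. PT libraries thus lay no closer to one another than to EL libraries. The excess was -0.144 bp when all 6 libraries had to hold the region (exact permutation p = 0.800). Among regions found in all 6 lists, the tightest were those of Nr2f6, an orphan nuclear receptor gene, and Cic, a repressor of growth factor target genes, where the 6 summits spanned 12 bp in each region, and of Psmg1, a proteasome assembly chaperone, where they spanned 17 bp. The widest were those of Bhlhe40 (603 bp), Ddx3x (394 bp) and Slc25a33 (382 bp).

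The member regions made up a different share of each list. The lists held 2897, 4030 and 6033 summits in PT replicates 1, 2 and 3, and 8588, 15770 and 7055 in the EL replicates, and read depth is unknown. Member regions took up 30.4%, 26.5% and 18.5% of the PT summits (95% Wilson intervals 28.7% to 32.1%, 25.2% to 27.9% and 17.6% to 19.5%). They took up 13.1%, 7.17% and 14.7% of the EL summits (12.4% to 13.8%, 6.78% to 7.59% and 13.9% to 15.5%). The intervals cover counting error only. The means were 25.1% ± 6.04 and 11.6% ± 3.95 (SD, n = 3 each), and the difference became -0.322 percentage points with lists of equal length. These shares are built from the calls that chose the members, so they are a description with no test. Of the 1153 regions 879, 1067 and 1118 were found in PT replicates 1, 2 and 3, against 1122, 1131 and 1036 in the EL replicates. All 6 lists held 678 of them, 5 lists held 385 and 4 lists held 90. The shortest list, PT replicate 1, was the one missing in 219 of the 385.

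The region at Zfp281, the gene of the factor itself, lay at chr1:136625513-136625780 and stood apart by its spread. Its ranks were 64.4, 99.8 and 1.72 in PT replicates 1, 2 and 3, and 91.5, 17.5 and 65.8 in the EL replicates. Both groups held high and low libraries, and they overlapped (limma adjusted p = 0.946). Its SD within groups, 1.97 normal-score units, was the largest of the 678 members tested, whose median was 0.342. The next were Med13l with 1.37 and Pgk1 with 1.17.

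At the edge of the rule, the regions of Atg10 and Klhl25 lay 1000 and 997 bp from their gene boundary, and the nearest shared regions left out lay 1001 bp away. Among regions at 1 gene boundary, 90 met the rule with exactly 2 lists of each group. Left out were 473 with 1 PT and at least 2 EL lists, and 71 with at least 2 PT lists and 1 EL list.

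The 12 regions with the highest lowest percentile over the lists were, in order, those of Sumo3, Kmt2a, Pcbp1, Chd3, Kmt2e, Bmpr1a, Sde2, Spred3, Tet3, Zfp768, Pdgfc and Zfat. Each figure given for them, and for the gene groups that follow, is the percentile of the region within its own list. Such percentiles move with list length, so they show no change between PT and EL. Bmpr1a, which encodes a type I receptor for bone morphogenetic proteins, had its region at chr14:34502683-34502723 with percentiles of 99.1, 99.6 and 99.8 in PT and 99.8, 99.7 and 99.1 in EL. Spred3, a member of the family that restrains RAS and ERK signals, had 99.2, 99.3 and 99.3 in PT and 99.7, 99.9 and 99.1 in EL, at chr7:29169583-29169635. Tet3, an enzyme that oxidises methylated cytosine, had 99.1, 99.4 and 99.6 in PT and 99.6, 99.5 and 99.0 in EL, at chr6:83456173-83456233. These 3 regions stood near the top of all 6 lists. Pdgfc, a growth factor ligand, had its region at chr3:81036917-81036954, 501 bp from the lower boundary, with percentiles of 98.6, 99.3 and 99.7 in PT and 99.5, 99.9 and 99.4 in EL. Sde2, a genome stability factor, had 99.8, 99.5 and 99.7 in PT and 99.3, 99.6 and 99.1 in EL.

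Genes of ligands, receptors and their signal relays formed one group of members. Of 32 TGF-beta and BMP pathway genes, 9 had a member region (28.1%, against 5.16% of all protein-coding genes), and 5 of the 9 were in all 6 lists. They comprised the receptor genes Bmpr1a, Acvr2b and Acvr2a, the ligand genes Tgfb3 and Bmp7, the inhibitors Smad6, Skil and Tgif1, and Id1, a target of BMP signals. Tgif1, a corepressor of SMAD proteins, had percentiles of 97.2, 97.7 and 99.6 in PT and 99.3, 99.8 and 98.9 in EL. Tgfb3 stood lower, at 36.1, 49.6 and 42.3 in PT and 87.5, 89.5 and 66.2 in EL. Its ranks among the common regions were 21.8, 20.9 and 7.47 in PT and 51.4, 34.7 and 27.4 in EL (limma adjusted p = 0.147). Of 36 ERBB and MAPK genes, 10 had a member region (27.8%), among them the kinase gene Braf, the phosphatase genes Dusp1, Dusp4 and Dusp6 that switch off MAP kinases, the ligand gene Hbegf, and Fos, Jun and Junb. Of 32 Wnt genes 6 had one (18.8%), namely the receptor genes Fzd7, Fzd2 and Lrp6, the signal genes Ctnnb1 and Gsk3b, and Lef1. Fzd7, whose sequence is shown above, had 92.6, 97.0 and 98.2 in PT and 96.7, 99.0 and 98.0 in EL. The regions of these lists found in all 6 libraries, 5, 6 and 2 of them, were tested for a rank difference between PT and EL. Limma called none of them at an adjusted p of 0.05, where the background was 14.2% of all common regions and 7.37% of all members tested.

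Chromatin and modifier genes were another group. Of 30 genes of remodelling and deacetylase complexes, 12 had a member region (40%, against 5.16% of all protein-coding genes). Of 30 genes of the SUMO and ubiquitin pathways 14 did (46.7%). The first list held the NuRD genes Chd3, Hdac2, Mta1, Mta3 and Gatad2b, the SWI/SNF genes Smarca4, Smarcc1, Arid1a and Arid1b, and Chd1, Bptf and Ino80. Hdac2, a histone deacetylase of NuRD, had percentiles of 97.6, 97.2 and 97.2 in PT and 95.6, 98.3 and 95.2 in EL. Among the second list were Sumo2 and Sumo3, the SUMO-activating subunit gene Uba2, the ligase genes Pias2 and Pias3, the protease gene Senp6, the polyubiquitin gene Ubb, Ube2d3, Ube2r2, Cul1, Cul3, Fbxw7 and Usp22. Uba2 had 83.9, 93.2 and 97.6 in PT and 98.5, 99.5 and 98.5 in EL. Of 25 histone methylation regulators 7 had a region (28.0%), 6 of 23 acetyltransferase and coactivator genes did (26.1%), and 5 of 25 Polycomb genes did (20.0%). Jarid2, a cofactor of Polycomb repressive complex 2, had 94.3, 90.8 and 97.6 in PT and 97.7, 97.8 and 91.3 in EL. Of the remodelling, SUMO and ubiquitin, histone methylation, acetyltransferase and Polycomb lists 11, 10, 7, 6 and 4 regions were tested. Limma called 1 of them, that of Ino80, described with the regions that ranked lower in PT. The background was 14.2% of all common regions and 7.37% of all members tested. These lists too were chosen with earlier results of these data known, and their gene counts had no test.

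Among other lists, 9 of 30 splicing and RNA-binding genes had a member region (30.0%, against 5.16% of all protein-coding genes). So did 10 of 29 genes of Klf, Sp, Egr and related zinc finger factors (34.5%), 5 of 31 cell cycle genes (16.1%) and 5 of 31 nuclear receptor genes (16.1%). Zfp148, a paralogue of Zfp281, was among the zinc finger genes, with percentiles of 44.1, 32.3 and 23.2 in PT and 82.5, 77.2 and 66.2 in EL. The ranks of the Zfp148 region among the common regions were 28.9, 10.8 and 2.67 in PT and 39.3, 11.8 and 27.4 in EL, and the groups overlapped (limma adjusted p = 0.360). Cdkn2b, an inhibitor of cyclin-dependent kinases, had 88.5, 90.3 and 88.3 in PT and 94.6, 97.4 and 83.4 in EL. Pkm, the pyruvate kinase gene with 3 matches in its promoter, had 95.4, 95.1 and 98.2 in PT and 99.7, 99.9 and 99.3 in EL, and it was 1 of 3 among 30 mitochondrial and metabolic genes (10%). EMT genes with a member region were Sox4, Sox9 and Twist1, 3 of 30 (10%). Of leukocyte, endothelial, fibroblast and adipocyte, and lung epithelial markers, 0 of 20, 0 of 16, 0 of 20 and 0 of 16 genes had one. The lists were chosen with earlier results of these data known, the gene counts had no test, and member genes had a median length of 30.7 kb, against 17.2 kb for all protein-coding genes. Their promoter windows had a median GC content of 66.3%, against 56.3% for all protein-coding genes.

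Few member regions were called as differing in rank between the groups. Ranks of all 1573 common regions were compared with limma on normal scores, and 223 regions (14.2%) passed an adjusted p of 0.05. Of the 678 members tested, 28 ranked higher in PT (4.13%, background 8.39%) and 22 ranked lower in PT (3.24%, background 5.79%), 50 in all (7.37%). The groups did not overlap in 214 members (31.6%, background 36.3%), of which 88 lay higher in PT (background 17.7%) and 126 lower in PT (background 18.6%). The median absolute difference of mean ranks was 10.6 points for members and 12.4 points for all common regions. The called share of members thus lay below that of all common regions, a difference that was not tested. The number higher in PT was 14 without EL replicate 3 and 18 without PT replicate 1. The number lower in PT was 7 without EL replicate 1, 7 without EL replicate 2 and 11 without EL replicate 3.

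**Figure D4:**
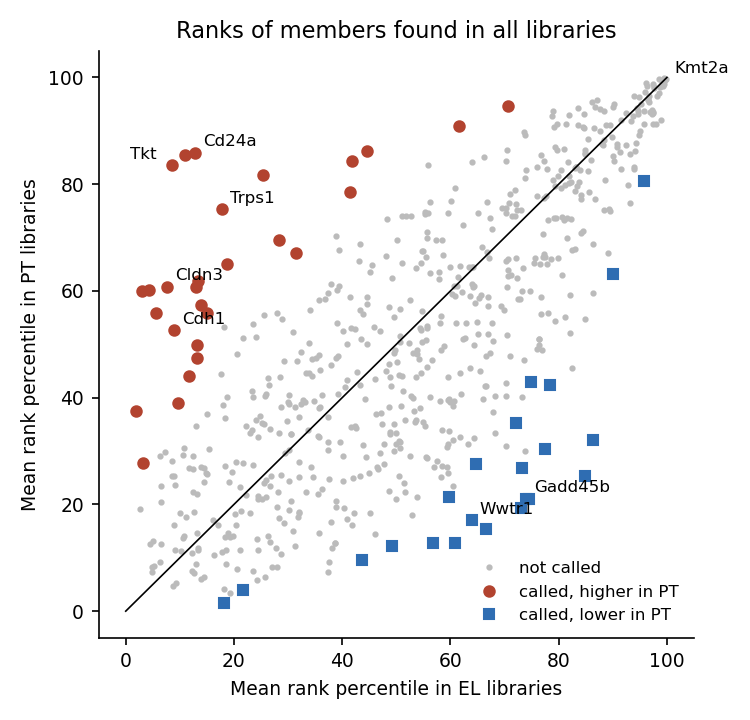
Mean rank percentile among the 1573 common regions in the 3 PT libraries (vertical) and the 3 EL libraries (horizontal) for the 678 members found in all libraries; red circles mark the 28 called higher in PT and blue squares the 22 called lower in PT by limma, and the line marks equal ranks. The members that were not called spread on both sides of the line, and the top regions, such as that of Kmt2a, are at the top in both groups.

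The regions that ranked higher in PT included genes of epithelial cells. Cldn3, a claudin of tight junctions, had ranks of 53.4, 78.9 and 50.2 in PT and 2.99, 2.00 and 17.9 in EL. The PT libraries all lay above the EL libraries, by 53.2 points on average (limma difference 1.92 ± 0.36 normal-score units, SE, adjusted p = 0.00767). Cdh1, the gene of E-cadherin, had 62.7, 55.8 and 39.6 in PT and 15.6, 8.87 and 2.29 in EL (43.8 points, limma adjusted p = 0.0116). Both belong to the epithelial junction and keratin list, of which 4 of 30 genes had a member region (13.3%, against 5.16% of all protein-coding genes). Of these, 3 could be tested and 3 were called higher in PT, where the background was 8.39% of all common regions. The list was chosen with earlier results of these data known, so its count is a description. Esrp1 of the same list, a splicing regulator of epithelial cells, was missing in EL replicate 3. Trps1, a repressor of the GATA family expressed in luminal cells, had 81.6, 63.4 and 80.8 in PT and 23.5, 12.9 and 16.8 in EL (57.5 points, limma adjusted p = 0.00453). It was called among the 2 members of the mammary luminal and milk list, and the other, Tfap2a, was not.

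The 3 regions with the greatest differences were those of Tkt, Adcy8 and Cd24a. Tkt, the transketolase of the pentose phosphate pathway, had ranks of 90.3, 84.3 and 75.9 in PT and 16.1, 8.36 and 1.18 in EL, at chr14:30548265-30548333. This was a difference of 75.0 points (limma 2.55 ± 0.35 normal-score units, SE, adjusted p = 0.00202). Adcy8, an adenylyl cyclase gene, had 88.1, 77.8 and 90.5 in PT and 5.18, 10.6 and 16.8 in EL (74.6 points, limma adjusted p = 0.00193). Cd24a, which encodes a surface protein used to sort mammary epithelial cells, had 87.8, 86.7 and 83.3 in PT and 27.2, 7.47 and 3.62 in EL (73.2 points, limma adjusted p = 0.00202). Faf1, a gene of ubiquitin-dependent protein turnover, had 58.0, 68.3 and 54.0 in PT and 7.28, 1.81 and 3.62 in EL (55.8 points, limma adjusted p = 0.00202). The regions of Tkt, Adcy8, Cd24a, Faf1 and Cldn3 stayed called without any single library. With summits merged at 50 bp, those of Tkt and Cd24a stayed called (72.1 and 71.3 points, limma adjusted p = 0.00123 and 0.00126). At that merging distance the regions of Adcy8, Faf1 and Cldn3 gave no rank difference, so their calls rest on wider merging. Others called higher in PT were those of Myh10, Etv1, Bhlhe41, Enpp1 and Fam53b, and of the histone genes H4c11 and H4c12, which belong to a family of near-identical copies, so that reads may be shared between copies. The Enpp1 region lay at the 3' boundary, 73603 bp downstream of the nearest listed start.

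Among the regions that ranked lower in PT, Dgkh, a diacylglycerol kinase gene, had ranks of 10.9, 41.6 and 23.6 in PT and 87.9, 84.6 and 81.9 in EL (-59.4 points, limma adjusted p = 0.00548). Il1rl2, the gene of an interleukin-36 receptor, had 13.1, 16.3 and 33.7 in PT and 69.7, 79.6 and 74.4 in EL (-53.5 points, limma adjusted p = 0.00695). Gadd45b, a stress response gene, had 15.2, 19.2 and 29.0 in PT and 74.0, 83.5 and 64.3 in EL (-52.8 points, limma adjusted p = 0.00699). The Gadd45b region lay at the 3' boundary, 2319 bp downstream of the nearest listed start. Wwtr1, which encodes the Hippo pathway coactivator TAZ, had 1.81, 34.1 and 14.9 in PT and 64.5, 53.8 and 73.5 in EL (-47.0 points, limma adjusted p = 0.0293). Ino80, the ATPase of a chromatin remodelling complex, had 0.413, 13.2 and 44.3 in PT and 69.7, 67.5 and 81.9 in EL (-53.7 points, limma adjusted p = 0.0351). PT libraries lay below EL libraries in each of these, with a wide spread within PT for Ino80 and Wwtr1. Ypel3 had 2.67, 74.6 and 19.1 in PT and 93.2, 81.4 and 84.3 in EL (-54.2 points, limma adjusted p = 0.0481). Son, a splicing cofactor gene, had 6.64, 31.5 and 7.79 in PT and 63.3, 61.8 and 74.4 in EL (-51.2 points, limma adjusted p = 0.0111). Limma's call was lost for Ino80 without any of 5 libraries (adjusted p of 0.0666 to 0.117), and for Son without PT replicate 1 (adjusted p = 0.0617). It was lost for Wwtr1 and for Ypel3 without each of 5 libraries (limma adjusted p of 0.0522 to 0.104 and 0.0957 to 0.162).

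**Figure D5:**
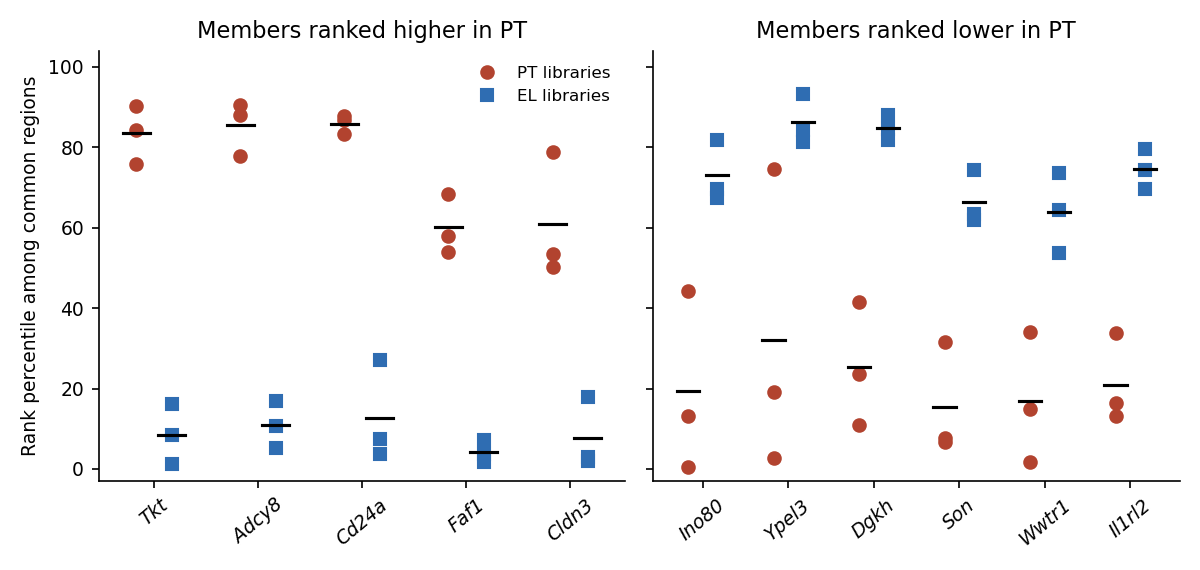
Rank percentile among the 1573 common regions of members chosen by limma difference. They have the largest positive (left, 5 shown) and negative (right, 6 shown) PT minus EL difference in normal scores, among members whose groups do not overlap. Red circles are the 3 PT libraries, blue squares the 3 EL libraries and black lines the group means. Cldn3 lies between 50.2 and 78.9 in PT and between 2.00 and 17.9 in EL, while for Ino80 the PT libraries spread from 0.413 to 44.3.

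The sequence word was not confined to one direction of change. Of the called members with the summit in a matched window, 4 of 10 higher in PT and 6 of 9 lower in PT held the G-run word, beside 129 of all 232 tested in this way. Of those higher in PT, the windows of Cldn3 and Faf1 held none, and those of Isoc2a, Ppp1r13b, H4c11 and H4c12 held 1 each. Of those lower in PT, the windows of Dgkh and Il1rl2 held 1 each, and that of Ino80 held none.

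Members were also set against other shared regions. Their median rank among common regions was 52.1, 51.4 and 52.7 in PT replicates 1, 2 and 3, and 53.7, 55.1 and 54.5 in the EL replicates. Distal regions between genes, 214 in number, had 49.8, 47.7 and 47.4 in PT and 41.8, 40.2 and 43.1 in EL. The mean difference was 8.25 ± 5.13 points, with members higher in 6 of 6 libraries (SD, n = 6; exact sign-flip permutation p = 0.031, two-sided, 0.0625 adjusted over 3 classes). Distal regions inside genes, 281 in number, had medians of 50.2, 51.4 and 45.1 in PT and 44.0, 40.5 and 38.0 in EL. For these the difference was 8.39 ± 6.61 points, higher in 5 of 6 libraries (exact permutation p = 0.0625, adjusted 0.0625). It was 0 in PT replicate 2, and each EL library had a wider gap than any PT library. For 116 regions within reach of several genes the difference was 2.52 ± 2.11 points, higher in 5 of 6 (exact permutation p = 0.0625, adjusted 0.0625). None passed 0.05 after adjustment. With lists of equal length the difference from distal regions between genes was -4.19 points, and without PT replicate 1 the difference from regions near several genes was -1.55 points.

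Genes with 2 member regions could have one that scored higher than the other. Kmt2c, a histone H3 lysine 4 methyltransferase gene, had a region at chr5:25499637-25499716 with a lowest percentile of 96.1 and one at chr5:25497843-25498093 with a lowest percentile of 44.9. Ing1, a reader of histone H3 lysine 4 methylation, had lowest percentiles of 87.8 and 46.5. Mllt6 had 90.5 and 16.8. Each of these figures is the lowest percentile over the lists that held the region, and a single list can set it. The 16.8 of Mllt6 came from PT replicate 2, while that region had 71.8 and 78.4 in PT replicates 1 and 3, and 81.9, 86.2 and 58.6 in EL. By chromosome the share of protein-coding genes with a member region ran between 3.88% on chromosome 14 and 6.71% on chromosome 11 among autosomes, and was 2.28% on chromosome X.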

How the data were processed

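Chromatin precipitated with a ZFP281 antibody was sequenced in 3 PT and 3 EL libraries. Reads were aligned with Bowtie2 2.3.4.3 and handled with Picard on build mm10, per the submitters' processing notes. The deposited lists give 1 summit per line with a score, read here as a −log10 q value because the lowest score of any list is 1.303 and the lowest of each list lies between this value and 1.551; the deposited lists do not name the unit. Neither the peak caller nor any use of inputs is given in the sources used here. Read depth is unknown.

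Summits on the 19 autosomes, X and Y were merged at 200 bp and annotated with RefSeq genes of GRCm38.p6. Ranks among the 1573 regions found in all 6 lists were compared with limma 3.58.1 (R 4.3.3) on normal scores, with Benjamini-Hochberg adjustment over all 1573. Other tests were exact permutations or sign flips over libraries (Python 3.11.15, scipy 1.17.1). The smallest p is 0.10 for 3 against 3 libraries and 0.031 for sign flips of 6. The fitting code was also run on simulated data with the same spread for all regions. That run cannot show how calls behave in regions of uneven spread.

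Members and gene lists were chosen with earlier results of these data known. The genes named were the 12 members with the highest lowest percentile, the 6 largest limma rank differences each way among members whose groups do not overlap, up to 4 members per list, those at the limits of the rule, the tightest and most spread, and genes with several regions. Other names, including Zfp281, Gadd45b, Myh10, Etv1, Bhlhe41, Enpp1, Fam53b, H4c11, H4c12, the 3' regions and some genes of the lists, were picked with their values in view. The comparison of ranks by sequence word and the shares of words and gene starts by set were added after the values were seen. Alternatives comprised 18 settings, among them other merging distances, windows, score minimum, list lengths and each library left out. Results for a few genes are not reported here.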

Additional observations from a re-analysis of the deposited data

Results flagged for a closer look

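EL replicate 3 had 4 summits on unplaced, unlocalized or mitochondrial sequences, which no comparison used and which passed the limit of 3 that a count of 0 allows. PT replicates 1, 2 and 3 had 0, 0 and 2 such summits, and EL replicates 1 and 2 had 1 and 3.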

How the results depend on the processing

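The distance from summits to the gene boundary (PT minus EL) was 5.33 bp with summits merged at 50 bp, and -12.5 to 0.917 bp with 1 library left out, turning sign without PT replicate 1 (0.667) or PT replicate 3 (0.917). The rank of members against regions near several genes turned to -1.54 points at 50 bp merging, -1.17 with a 500 bp window, -0.456 with a 2 kb window, -1.48 with scores of at least 5, -2.77 with equal list lengths and -0.707 with all annotated genes; it was 2.53 at 500 bp merging (exact permutation, adjusted p = 0.0469) and -1.55 to 2.72 with 1 library left out, the lowest without PT replicate 1. Against distal regions between genes it was 7.43 at 500 bp merging (adjusted p = 0.0469 by exact permutation), -4.19 with equal list lengths and 7.24 to 8.81 with 1 library left out; against distal regions inside genes it was 1.05 with equal list lengths (exact permutation, adjusted p = 0.594) and 7 to 9.67 with 1 library left out. The rank difference by sequence word was 19.1 at 500 bp merging (adjusted p = 0.0417 by exact permutation) and 15.9 to 21.2 with 1 library left out. Members called higher in PT numbered 13 at 50 bp merging, 11 with equal list lengths and 14 to 25 with 1 library left out, and those called lower 12 and 7 to 23 for the last 2 settings. Equal list lengths left 689 members, a share difference of -0.322 points, a word share of 55.7% and a start share of 97.2%. Requiring all 3 libraries of each group left 678 members, an offset of -0.144 bp, a word share of 55.6% and a start share of 97.3%. The start share was 94.1% with a 2 kb window and 93.4% with all annotated genes. With 1 library left out, members numbered 786 to 1095, the share difference was 9.14 to 15.3 points, the offset 0.0431 to 3.75 bp, the word share 47.8% to 53.8% and the start share 95.8% to 96.4%; both remaining libraries of the reduced group were then required. The causes were not tested.

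Correlations of deviations, and not of the libraries themselves, were 0.0356, -0.0689 and 0.0265 for same-numbered PT and EL libraries. For libraries of other numbers they ran from -0.0821 to 0.0669, so the numbers were not taken to pair samples. With the replicate block limma called 30 members higher and 24 lower in PT; the distance difference was -3.50 bp (exact sign-flip permutation p = 0.750) and the share difference 13.5 points. Unknown read depth and the short list of PT replicate 1 limit which regions could be found.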
